A study of Mus musculus with 12 samples.

Results

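The genes described here are 10 transcripts of the secondary granule and of late neutrophil development: S100a8, S100a9, Ltf, Camp, Ngp, Lcn2, Mmp8, Cxcr2, Retnlg and Padi4. They were taken by symbol from a deposited table of RNA-seq counts that lists 55291 symbols, and all 10 were among the 15674 genes that passed a filter on low counts. The libraries came from bone marrow of mice about 8 weeks old, cultured for about 24 hours, from which the non-adherent cells were collected. There were 12 libraries, 3 in each of 4 groups, named below by group and replicate number. Mice labelled control and mice labelled homozygous were left untreated or received short-chain fatty acids (SCFAs, products of bacterial fermentation of fibre) in their drinking water. The homozygous genotype is given as STAT3Cstopfl/fl CD4Cre in 5 labels and as R26STAT3Cstopfl/fl CD4Cre in that of homozygous untreated 1, while the alleles of the control mice are not named. STAT3C is a constitutively active form of the transcription factor STAT3, here behind a stop cassette that Cre driven by the CD4 promoter removes, mainly in T lineage cells. The 10 summed T cell markers reached only 45.9 to 129 CPM (a gene's counts scaled to a common library total) per library. None of them had 0 counts summed over the libraries of any group.

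Neutrophils build their granules in sequence. Primary granule proteins such as myeloperoxidase are made first, in promyelocytes, and secondary granule proteins such as lactoferrin follow in myelocytes and metamyelocytes, under transcription factors of the C/EBP family. Receptors that release the cell from the marrow, and the enzymes of the mature cell, come last. S100a8 and S100a9 are among the most abundant transcripts of the lineage, and neutrophils and their precursors are the largest cell population of mouse marrow.

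The C/EBP motif TTNNGCAA, searched on both strands in the 250 bases before each RefSeq start (build GRCm38.p6), occurred at 6 of the 10 genes and in 9.56% of 32851 such windows of the RefSeq table. The matches that lie outside the transcribed region of both RefSeq and GENCODE are printed because, of the 4 motifs searched, this one was found at most members, with the motif in capitals and up to 11 bases on each side, on the strand of the gene.

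S100a9, chr3:90695939-90695968, minus strand: ggtaggctgtcTTGCTTAAgatttgggcgg
Ltf, chr9:111019206-111019235, plus strand: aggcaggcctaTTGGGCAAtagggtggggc
Ngp, chr9:110419659-110419688, plus strand: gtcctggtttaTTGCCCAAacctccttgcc
Mmp8, chr9:7558399-7558428, plus strand: ttaggcagaagTTGCTCAAgatgtagcttt
Retnlg, chr16:48872358-48872380, plus strand: agctTTCTGCAAggcattccagg

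The match of Lcn2 and a second match of Ngp lie inside the longer GENCODE gene models and are not printed. A PU.1 core, GAGGAA, was found at 5 of the 10 genes against 23.3% of windows, and TATAAA at 2 (S100a8 and Padi4) against 12.4%. The STAT motif TTCNNNGAA was in none of the 10 windows and in 7.02% of all. None of the printed matches overlaps a match of another motif, and each is a description of letters, not a measured binding site.

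Libraries held 16954355 to 20748995 counts, and counting error was small beside the spread between libraries for genes this abundant. The labels date untreated libraries to day 1 and SCFA libraries to day 30 of month 3, so SCFA and date cannot be told apart, whereas each genotype comparison lies within a date. Whether replicates are separate mice is not stated in the labels, so p-values measure only the spread between these libraries, which may be technical. Libraries also differed in how their counts related to the GC content of transcripts. The difference in log2 CPM between GC-rich and GC-poor genes, relative to the mean of all libraries, ran from -0.83 in control SCFA 3 to 1.29 in control untreated 2, which also stood apart on the second principal component (58.5, against 9.46 and 34.8 in the other 2 libraries of its group). The planned test used TMM scaling of library sizes. Tests were therefore repeated after removal of each library's trend of log2 CPM on GC content (GC scaling). This repeat was added after the trend had been seen, and not every GC-scaled value is printed. A log2 fold change given without a named scaling is from TMM scaling and is not adjusted for the GC trend. This holds for most single genes named outside the members. Mmp8, S100a8, S100a9, Cxcr2 and Retnlg had 43.4% to 46.7% GC in their longest transcript, and Ngp, Ltf, Camp, Lcn2 and Padi4 had 50.2% to 54.7%. As bulk RNA, the libraries do not tell fewer cells of a type from less RNA per cell.

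The labels call the cells progenitors. In summed counts the 10 genes far outweighed 8 stem and progenitor markers. These are unlike sets of genes, and their sums do not measure the share of cells at each stage. The 10 genes took 5.65%, 3.94% and 4.33% of all counts in control untreated 1, 2 and 3, and 7.38%, 6.74% and 5.76% in homozygous untreated. They took 5.97%, 6.16% and 6.13% in control SCFA and 6.91%, 6.64% and 5.99% in homozygous SCFA. Control untreated was the lowest group, with no library above the lowest of any other group, and the other 3 groups overlapped. The 8 stem and progenitor markers of the list, among them Kit and Cd34, summed to 161 to 221 CPM in any library. Against control untreated, most of the difference in summed share came from S100a8 and S100a9, which took 2.83% ± 1.00 in control and 4.66% ± 0.836 in homozygous mice without SCFA, and 4.47% ± 0.0925 and 4.60% ± 0.471 respectively under SCFA (mean ± SD, n = 3). Between the genotypes under SCFA, those 2 genes differed less in share of counts than the other 8 did. These shares are not scaled for GC content. GC-scaled CPM of S100a8 was 31434 ± 730 in control SCFA and 38690 ± 3016 in homozygous SCFA (mean ± SD, n = 3). EdgeR did not call that difference (adjusted p = 0.341). Without S100a8 and S100a9, the other 8 took 1.81% ± 0.109 in control and 1.97% ± 0.0743 in homozygous mice without SCFA, and 1.61% ± 0.0795 and 1.91% ± 0.0983 respectively under SCFA (mean ± SD, n = 3). S100a8 alone made up 43.9% ± 10.8 of the 10 genes' counts in control untreated and 58.3% ± 1.82 in control SCFA.

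**Figure D1:**
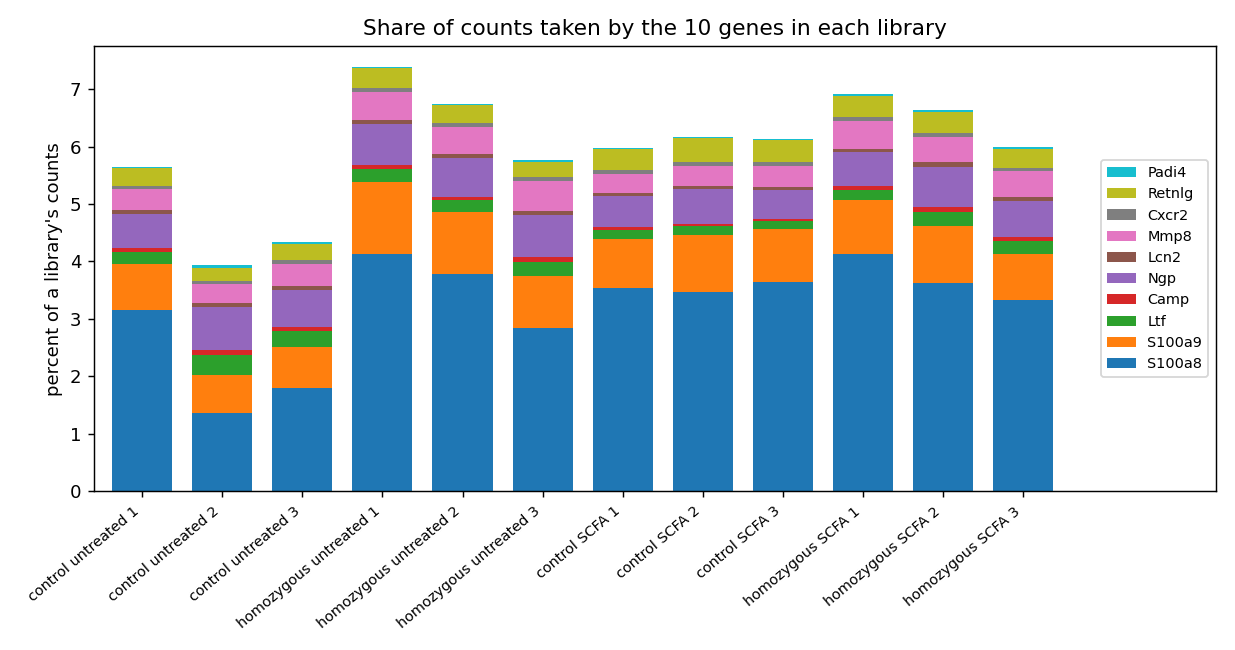
Stacked bars give the percent of each library's counts in each of the 10 genes, for the 12 libraries in 4 groups of 3. Control untreated libraries reach 3.94% to 5.65%, all below the other 9, and S100a8 is the tallest segment in every library.

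Homozygous marrow without SCFA held more alarmin and collagenase transcript than control marrow of the same date: S100a8, S100a9, Mmp8 and Cxcr2 rose and Padi4 fell. Those 5 of 10 genes, 4 higher and 1 lower, compare with 14.8% of all genes (6.69% higher and 8.13% lower) called. The 2 groups' TMM-scaled CPM did not overlap for 5 of 10 members, against 32.3% of all genes. Ltf, Camp, Ngp, Lcn2 and Retnlg did not pass, with log2 fold changes of -0.12 to 0.32. After GC scaling 6 rose and 1 fell, against 9.83% of all genes (5.14% higher and 4.68% lower) called, with Camp, Ngp and Lcn2 in and Cxcr2 out.

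Under SCFA the homozygous marrow differed from control marrow in a partly different set of members. Mmp8 was called higher in both genotype comparisons and Padi4 in opposite directions, under both scalings. With GC scaling Camp and Ngp were also called higher without and under SCFA (0.34 and 0.60 for Camp, 0.36 and 0.19 for Ngp). Under SCFA, Ltf, Camp, Lcn2, Mmp8 and Padi4 rose with TMM scaling, by 1.31- to 1.86-fold, and none fell. Those 5 compare with 17.4% of all genes (8.89% higher and 8.47% lower) called. Groups did not overlap for 6 of 10 members, against 39.5% of all genes. S100a8, S100a9, Cxcr2 and Retnlg had log2 fold changes between -0.11 and 0.073 with TMM scaling. With GC scaling their values ran from 0.030 (Retnlg) to 0.30 (S100a8), none of them called. GC scaling also called 5 members, all higher, against 15.4% of all genes (7.51% higher and 7.87% lower), with Ngp in and Lcn2 out.

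In control mice, SCFA went with calls in both directions. S100a8, S100a9, Cxcr2 and Retnlg rose and Ltf, Camp and Padi4 fell, and Lcn2 was called lower with TMM scaling but had the other sign, uncalled, with GC scaling. Those TMM calls were 8 of 10 against 21.9% of all genes (8.89% higher and 13% lower) called. Groups did not overlap for 8 of 10 members, against 38.5% of all genes. GC scaling left 3 calls, Retnlg higher and Ltf and Mmp8 lower, against 6.11% of all genes (2.57% higher and 3.54% lower). Both this comparison and that of genotype without SCFA use the control untreated libraries, so their values are not independent.

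In homozygous mice Padi4 rose under SCFA and was the 1 member called, against 9.58% of all genes (3.96% higher and 5.61% lower). Groups did not overlap for 3 of 10 members, against 30.1% of all genes. GC scaling kept Padi4 and added a fall of Ngp, 2 of 10 members against 11.9% of all genes (4.83% higher and 7.04% lower). The difference between the genotypes' responses to SCFA (the interaction) was called for 5 members, positive for Ltf, Camp, Lcn2 and Padi4 and negative for S100a9, against 25.1% of all genes (13.6% higher and 11.6% lower) called. After GC scaling 2 were left, Ltf and Padi4, against 9.98% of all genes (4.47% higher and 5.52% lower). All calls are from edgeR's quasi-likelihood test with a Benjamini-Hochberg adjusted p under 0.05 over 15674 genes, and values after ± beside a log2 fold change are standard errors. The median log2 fold change of the 10 genes was 0.28 for genotype without SCFA (all genes -0.035), 0.31 for genotype under SCFA (-0.025), -0.050 for SCFA in control mice (0.037) and -0.0089 for SCFA in homozygous mice (-0.002).

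**Figure D2:**
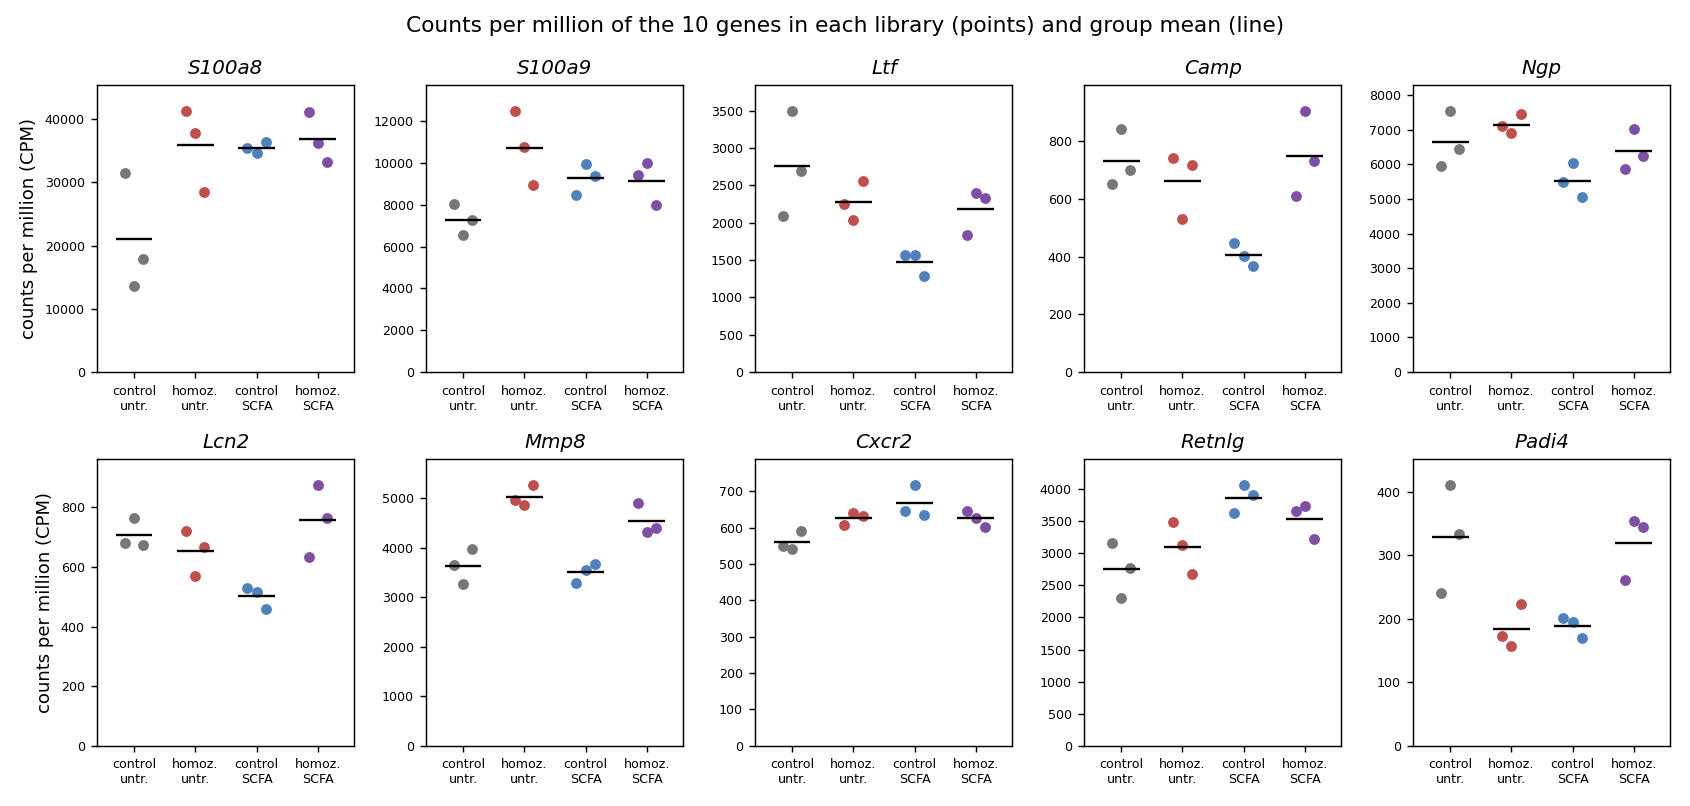
Each panel shows 1 gene, with CPM on a linear axis from 0, a point for each of the 3 libraries of the 4 groups and a line at the group mean. S100a8 and S100a9 are lowest in control untreated, Ltf, Camp and Lcn2 are lowest in control SCFA, and Padi4 is low in homozygous untreated and control SCFA.

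S100a8 and S100a9 encode calcium-binding proteins that pair as calprotectin and act outside the cell on the receptors TLR4 and RAGE. They lie 22596 bases apart on chromosome 3 (S100a8 at chr3:90668978-90670035, plus strand; S100a9 at chr3:90692632-90695721, minus strand; mm10). Without SCFA S100a8 had 31509, 13639 and 17895 CPM in control libraries 1, 2 and 3 and 41306, 37817 and 28451 in homozygous libraries, and under SCFA 35454, 34618 and 36338 in control and 41218, 36168 and 33261 in homozygous libraries. S100a8 was the most counted gene in all 12 libraries. Control untreated 1 lay within the range of homozygous untreated, whereas control untreated 2 and 3 lay below every other library. The log2 fold change for genotype without SCFA was 0.91 ± 0.25 (adjusted p = 0.0268) and that for SCFA in control mice 0.85 ± 0.25 (adjusted p = 0.0269), while genotype under SCFA gave 0.073 ± 0.24 (adjusted p = 0.878). The first call was lost without control untreated 2 or 3 or homozygous untreated 1 or 2 (adjusted p = 0.0917 to 0.112) and the second without control untreated 2 or 3 or control SCFA 1, 2 or 3 (adjusted p = 0.0640 to 0.105). Each was also lost with only the 2 groups fitted (adjusted p = 0.0872 and 0.0754). With GC scaling the values were 0.68 ± 0.19 (adjusted p = 0.0372) and 0.54 ± 0.19 (adjusted p = 0.105), and the first of them was lost without control untreated 2 or 3, homozygous untreated 1 or 2, control SCFA 1, 2 or 3 or homozygous SCFA 2 (adjusted p = 0.0502 to 0.153). For genotype under SCFA, GC scaling gave 0.30 ± 0.19 (adjusted p = 0.341).

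Without SCFA S100a9 had 8011, 6554 and 7276 CPM in control libraries 1, 2 and 3 and 12478, 10759 and 8965 in homozygous libraries, and under SCFA 8443, 9950.2 and 9387 in control and 9426, 9986 and 7967 in homozygous libraries. Homozygous untreated and control SCFA libraries all lay above the 3 control untreated libraries. S100a9 rose with genotype without SCFA, at a log2 fold change of 0.71 ± 0.14 (adjusted p = 0.00646), and the call held in every leave-one-out fit under both scalings (GC scaling 0.48 ± 0.10, adjusted p = 0.0103). The rise with SCFA in control mice was smaller, 0.45 ± 0.14 (adjusted p = 0.0378), and was lost without control untreated 2 or 3, homozygous untreated 2, control SCFA 2 or 3 or homozygous SCFA 2 (adjusted p = 0.0503 to 0.16). It was also lost with library totals alone (adjusted p = 0.0585), with scaling without the 10 genes (adjusted p = 0.0621) and with only the 2 groups fitted (adjusted p = 0.0660), and with GC scaling, at 0.16 ± 0.10 (adjusted p = 0.411). The interaction for S100a9 was -0.72 ± 0.20 (adjusted p = 0.0198), and -0.28 ± 0.15 (adjusted p = 0.261) with GC scaling. It was lost without homozygous untreated 1 or 2, control SCFA 2 or 3 or homozygous SCFA 3 (adjusted p = 0.0508 to 0.0643).

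Ltf encodes lactoferrin, an iron-binding protein of the secondary granule, Camp the precursor of the antimicrobial peptide cathelicidin, Ngp a cystatin-related granule protein, and Lcn2 a lipocalin that binds bacterial siderophores. Ltf (chr9:111019271-111042767, plus strand), Camp (chr9:109847379-109849617, minus strand) and Ngp (chr9:110419747-110423012, plus strand) lie on chromosome 9 and Lcn2 (chr2:32384633-32388252, minus strand) on chromosome 2. Without SCFA Ltf had 2088, 3493 and 2693 CPM in control libraries 1, 2 and 3 and 2243, 2034 and 2556 in homozygous libraries, and under SCFA 1563, 1568 and 1291 in control and 1835, 2391 and 2325 in homozygous libraries. All 3 control SCFA libraries lay below all 9 others. Ltf fell with SCFA in control mice, to 0.578 of its level, at a log2 fold change of -0.79 ± 0.15 (adjusted p = 0.00584). This was the 1 SCFA call in control mice that held in every leave-one-out fit under both scalings (GC scaling -0.60 ± 0.091, adjusted p = 0.00259). Ltf rose with genotype under SCFA by 0.58 ± 0.15 (adjusted p = 0.0155), a call lost without control SCFA 3 or homozygous SCFA 2 or 3 (adjusted p = 0.0522 to 0.0680) with TMM scaling but called in 12 of 12 leave-one-out fits with GC scaling (0.49 ± 0.091, adjusted p = 0.00202). In homozygous mice SCFA gave -0.088 ± 0.15 (adjusted p = 0.780). The interaction was 0.70 ± 0.21 (adjusted p = 0.0259), lost without homozygous untreated 1 or 2, control SCFA 3 or homozygous SCFA 2 or 3 (adjusted p = 0.0523 to 0.0750), and with GC scaling 0.45 ± 0.13 (adjusted p = 0.0419), lost without control untreated 2 or 3, homozygous untreated 1 or 2, control SCFA 1, 2 or 3 or homozygous SCFA 2 or 3 (adjusted p = 0.0551 to 0.104).

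Without SCFA Camp had 651, 842 and 698 CPM in control libraries 1, 2 and 3 and 740.5, 531 and 716 in homozygous libraries, and under SCFA 447, 402 and 367 in control and 608, 904 and 732 in homozygous libraries. Control SCFA was again the lowest group, below all 9 other libraries, which overlapped among themselves. Camp rose with genotype under SCFA by 0.90 ± 0.15 (adjusted p = 0.00127), the largest fold among the members in that comparison with TMM scaling, and the call held in each leave-one-out fit under both scalings (GC scaling 0.60 ± 0.10, adjusted p = 6.61e-04). It fell with SCFA in control mice, at -0.74 ± 0.15 (adjusted p = 0.00729), a call lost without control SCFA 3 (adjusted p = 0.0503) and lost with GC scaling, at -0.31 ± 0.10 (adjusted p = 0.0687). The 2 scalings parted for genotype without SCFA, with 0.0091 ± 0.15 (adjusted p = 0.974) under TMM and 0.34 ± 0.10 (adjusted p = 0.0372) under GC scaling, the latter lost without control untreated 2 or 3, homozygous untreated 1 or 3 or control SCFA 1, 2 or 3 (adjusted p = 0.0535 to 0.167). The interaction was 0.89 ± 0.22 (adjusted p = 0.00993), and 0.25 ± 0.14 (adjusted p = 0.270) with GC scaling.

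Without SCFA Lcn2 had 680.2, 765 and 675 CPM in control libraries 1, 2 and 3 and 721, 570.5 and 665 in homozygous libraries, and under SCFA 528, 517 and 459 in control and 634, 875 and 762 in homozygous libraries. Control SCFA lay below all other libraries, as for Ltf and Camp. Lcn2 rose with genotype under SCFA by 0.61 ± 0.13 (adjusted p = 0.00436), in every leave-one-out fit with TMM scaling, and GC scaling gave 0.30 ± 0.10 (adjusted p = 0.0530). Its lower value with SCFA in control mice, -0.39 ± 0.12 (adjusted p = 0.0388), was lost without control untreated 2 or 3, control SCFA 1, 2 or 3 or homozygous SCFA 3 (adjusted p = 0.0547 to 0.164), and also without a filter on low counts (adjusted p = 0.0504) and with only the 2 groups fitted (adjusted p = 0.0716). It became 0.045 ± 0.10 (adjusted p = 0.839) with GC scaling, so that no direction is given for it. For genotype without SCFA the value was 0.034 ± 0.12 (adjusted p = 0.878) under TMM and 0.37 ± 0.10 (adjusted p = 0.0260) under GC scaling, called there but lost without control untreated 2 or 3 or homozygous untreated 1 (adjusted p = 0.1 to 0.119). The interaction of 0.58 ± 0.18 (adjusted p = 0.0282) was lost without homozygous untreated 2, control SCFA 2 or 3 or homozygous SCFA 2 or 3 (adjusted p = 0.0595 to 0.0897), and GC scaling gave -0.077 ± 0.14 (adjusted p = 0.788).

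Without SCFA Ngp had 5953, 7539 and 6428 CPM in control libraries 1, 2 and 3 and 7096, 6903 and 7445 in homozygous libraries, and under SCFA 5493, 6027 and 5067 in control and 5876, 7030.0 and 6249 in homozygous libraries. Homozygous untreated libraries all lay above the 3 control SCFA libraries, and other pairs of groups overlapped in CPM. Ngp passed no edgeR test with TMM scaling, with 0.26 ± 0.10 (adjusted p = 0.0840) for genotype without SCFA and 0.22 ± 0.10 (adjusted p = 0.129) under SCFA. DESeq2 called the first (adjusted p = 0.0167), and limma-voom both (adjusted p = 0.0198 and 0.0388). With GC scaling the spread between libraries was smaller, and both genotype comparisons were called, at 0.36 ± 0.053 (adjusted p = 6.39e-04) in 12 of 12 leave-one-out fits and 0.19 ± 0.052 (adjusted p = 0.0209), the latter lost without control SCFA 1 or 3 or homozygous SCFA 2 (adjusted p = 0.0625 to 0.0778). GC-scaled CPM of Ngp was 5802 ± 198 in control and 7424 ± 51.4 in homozygous mice without SCFA, and 5604 ± 312 and 6413 ± 282 respectively under SCFA (mean ± SD, n = 3). Its GC-scaled fall with SCFA in homozygous mice was -0.21 ± 0.052 (adjusted p = 0.0172), lost without homozygous untreated 3 or homozygous SCFA 1 or 3 (adjusted p = 0.0550 to 0.0858).

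**Figure D3:**
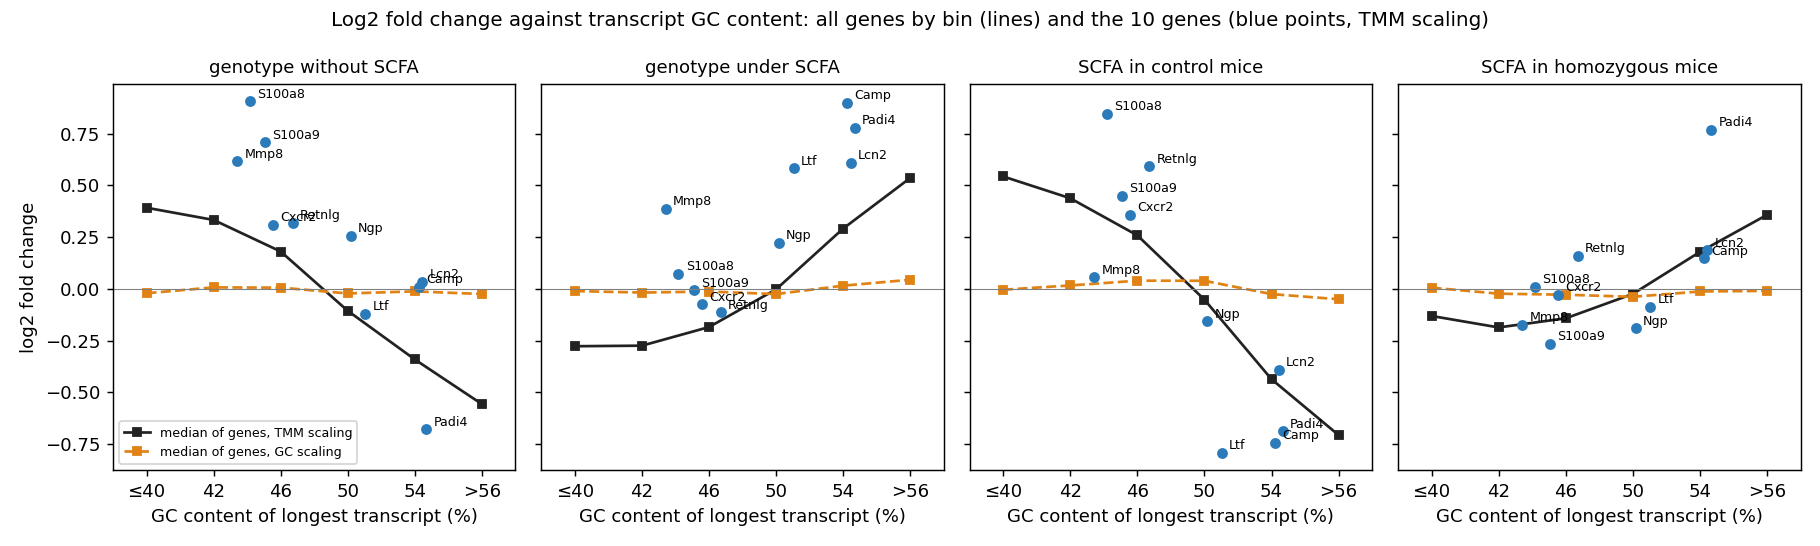
Lines give the median log2 fold change of all tested genes in 6 bins of transcript GC content (end bins at most 40% and above 56%) with TMM and with GC scaling, and blue points the 10 genes with TMM scaling, in the 4 comparisons between 2 groups. The TMM medians run from 0.54 to -0.71 for SCFA in control mice and the other way for genotype under SCFA, while the GC-scaled medians stay near 0.

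The GC trend covered all genes. For SCFA in control mice, the median log2 fold change was 0.54 in genes of at most 40% GC and -0.71 in genes above 56%. For genotype without SCFA it was 0.39 in genes of at most 40% GC and -0.56 in genes above 56%, and for genotype under SCFA -0.28 in genes of at most 40% GC and 0.54 in genes above 56%. In the bin of 44 to 48% GC, which holds S100a8, S100a9, Cxcr2 and Retnlg, the medians were 0.18, -0.18 and 0.26 for genotype without SCFA, genotype under SCFA and SCFA in control mice. In the bin of 52 to 56%, which holds Camp, Lcn2 and Padi4, they were -0.34, 0.29 and -0.44. The bin of Mmp8 had medians of 0.33, -0.27 and 0.44. The bin of Ltf and Ngp had medians of -0.11, -0.002 and -0.052.

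Mmp8 (chr9:7558456-7568485, plus strand) encodes neutrophil collagenase, a secreted protease stored in the secondary granule, and is the member with the lowest GC content. Without SCFA Mmp8 had 3656, 3262 and 3962 CPM in control libraries 1, 2 and 3 and 4958, 4856 and 5267 in homozygous libraries, and under SCFA 3286, 3551 and 3671 in control and 4902, 4305 and 4397 in homozygous libraries. Both homozygous groups lay above both control groups, with no overlap. Mmp8 rose with genotype without SCFA by 0.62 ± 0.11 (adjusted p = 0.00222) and under SCFA by 0.39 ± 0.11 (adjusted p = 0.0220). The first call held in every leave-one-out fit under both scalings (GC scaling 0.33 ± 0.066, adjusted p = 0.00599). The second was lost without control SCFA 1, 2 or 3 or homozygous SCFA 1 or 3 (adjusted p = 0.0502 to 0.103) and without a filter on low counts (adjusted p = 0.0507) with TMM scaling, and was 0.63 ± 0.066 (adjusted p = 1.16e-05) and called in 12 of 12 leave-one-out fits with GC scaling. Mmp8 was therefore called higher in homozygous marrow on both dates and under both scalings. With SCFA in control mice the value was 0.056 ± 0.11 (adjusted p = 0.745) under TMM and -0.33 ± 0.066 (adjusted p = 0.0112) under GC scaling, a change of sign, and the latter call was lost without control untreated 3 or control SCFA 1 (adjusted p = 0.05004 to 0.0522). GC-scaled CPM was 3849 ± 279 in control and 4833 ± 364 in homozygous mice without SCFA, and 3067 ± 109 and 4761 ± 108 respectively under SCFA (mean ± SD, n = 3).

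Cxcr2 (chr1:74153989-74161246, plus strand) encodes the receptor for CXCL1 and CXCL2 through which mature neutrophils leave the marrow, and Retnlg (chr16:48872621-48874496, plus strand) a secreted protein of the resistin family. Cxcr2 had the narrowest range relative to its level, between 540.4 and 718 CPM in all 12 libraries. Its 3 control untreated libraries (549, 540.4 and 589.7 CPM) lay below the other 9. The rise with genotype without SCFA was 0.31 ± 0.10 (adjusted p = 0.0491) and was lost without control untreated 2 or 3, homozygous untreated 1, 2 or 3, control SCFA 1, 2 or 3 or homozygous SCFA 2 or 3 (adjusted p = 0.0558 to 0.181). It was also lost with library totals alone (adjusted p = 0.247), with scaling without the 10 genes (adjusted p = 0.0741), without a filter on low counts (adjusted p = 0.260) and with only the 2 groups fitted (adjusted p = 0.139). The rise with SCFA in control mice was 0.36 ± 0.10 (adjusted p = 0.0221), lost without control untreated 2 or 3, homozygous untreated 3 or control SCFA 2 or 3 (adjusted p = 0.0559 to 0.0931), and with library totals alone (adjusted p = 0.0703), without a filter on low counts (adjusted p = 0.172) and with only the 2 groups fitted (adjusted p = 0.0838). With GC scaling neither was called (0.10 ± 0.066, adjusted p = 0.367, and 0.095 ± 0.066, adjusted p = 0.445).

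Without SCFA Retnlg had 3165, 2306 and 2775 CPM in control libraries 1, 2 and 3 and 3485, 3136 and 2683 in homozygous libraries, and under SCFA 3624, 4067 and 3910.2 in control and 3659.8, 3735 and 3219.8 in homozygous libraries. Control SCFA libraries all lay above the 6 untreated libraries. Retnlg rose with SCFA in control mice by 0.59 ± 0.14 (adjusted p = 0.0130), and by 0.42 ± 0.11 (adjusted p = 0.0375) with GC scaling. The call was lost without control untreated 2 or control SCFA 2 or 3 (adjusted p = 0.0525 to 0.0688) with TMM scaling, and without control untreated 2 or 3, homozygous untreated 2 or control SCFA 1, 2 or 3 (adjusted p = 0.0517 to 0.138) with GC scaling. In homozygous mice SCFA gave 0.16 ± 0.14 (adjusted p = 0.547). Neither genotype comparison was called (0.32 ± 0.14 without SCFA, adjusted p = 0.140, and -0.11 ± 0.14 under SCFA, adjusted p = 0.642).

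Padi4 (chr4:140745865-140774236, minus strand) encodes a peptidylarginine deiminase that converts arginine in histones to citrulline and is required for neutrophil extracellular traps. It was the least abundant member and the only one called in opposite directions for genotype without and under SCFA. Without SCFA Padi4 had 241, 411 and 334 CPM in control libraries 1, 2 and 3 and 173, 158 and 223 in homozygous libraries, and under SCFA 201, 195 and 170.2 in control and 261, 355 and 344 in homozygous libraries. Homozygous untreated and control SCFA libraries all lay below the control untreated and homozygous SCFA libraries. Padi4 fell with genotype without SCFA, at -0.68 ± 0.17 (adjusted p = 0.0190), and rose with genotype under SCFA, at 0.78 ± 0.17 (adjusted p = 0.00643). It fell with SCFA in control mice, at -0.69 ± 0.17 (adjusted p = 0.0137), and rose with SCFA in homozygous mice, at 0.77 ± 0.17 (adjusted p = 0.0112). The interaction was 1.46 ± 0.24 (adjusted p = 0.00152), or 2.74-fold, and held in every leave-one-out fit under both scalings. GC scaling reduced each value, to -0.30 ± 0.085 (adjusted p = 0.0386), 0.45 ± 0.085 (adjusted p = 0.00216), -0.21 ± 0.085 (adjusted p = 0.169) and 0.54 ± 0.085 (adjusted p = 6.78e-04) in the same order, and the interaction to 0.75 ± 0.12 (adjusted p = 0.00150). Both rises were called in 12 of 12 GC-scaled leave-one-out fits, and the fall with genotype was lost without control untreated 2 or 3, homozygous untreated 1 or 2, control SCFA 1, 2 or 3 or homozygous SCFA 1, 2 or 3 (adjusted p = 0.0547 to 0.152). With TMM scaling that fall was lost without control untreated 2 or 3 or homozygous untreated 1 or 2 (adjusted p = 0.0523 to 0.0993) and with only the 2 groups fitted (adjusted p = 0.0678), the fall with SCFA in control mice without control untreated 2 or control SCFA 3 (adjusted p = 0.0530 to 0.0733) and the rise with SCFA in homozygous mice without homozygous untreated 2 (adjusted p = 0.0564). GC-scaled CPM was 251 ± 19.8 in control and 204 ± 19.0 in homozygous mice without SCFA, and 218 ± 2.74 and 298 ± 11.1 respectively under SCFA (mean ± SD, n = 3).

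**Figure D4:**
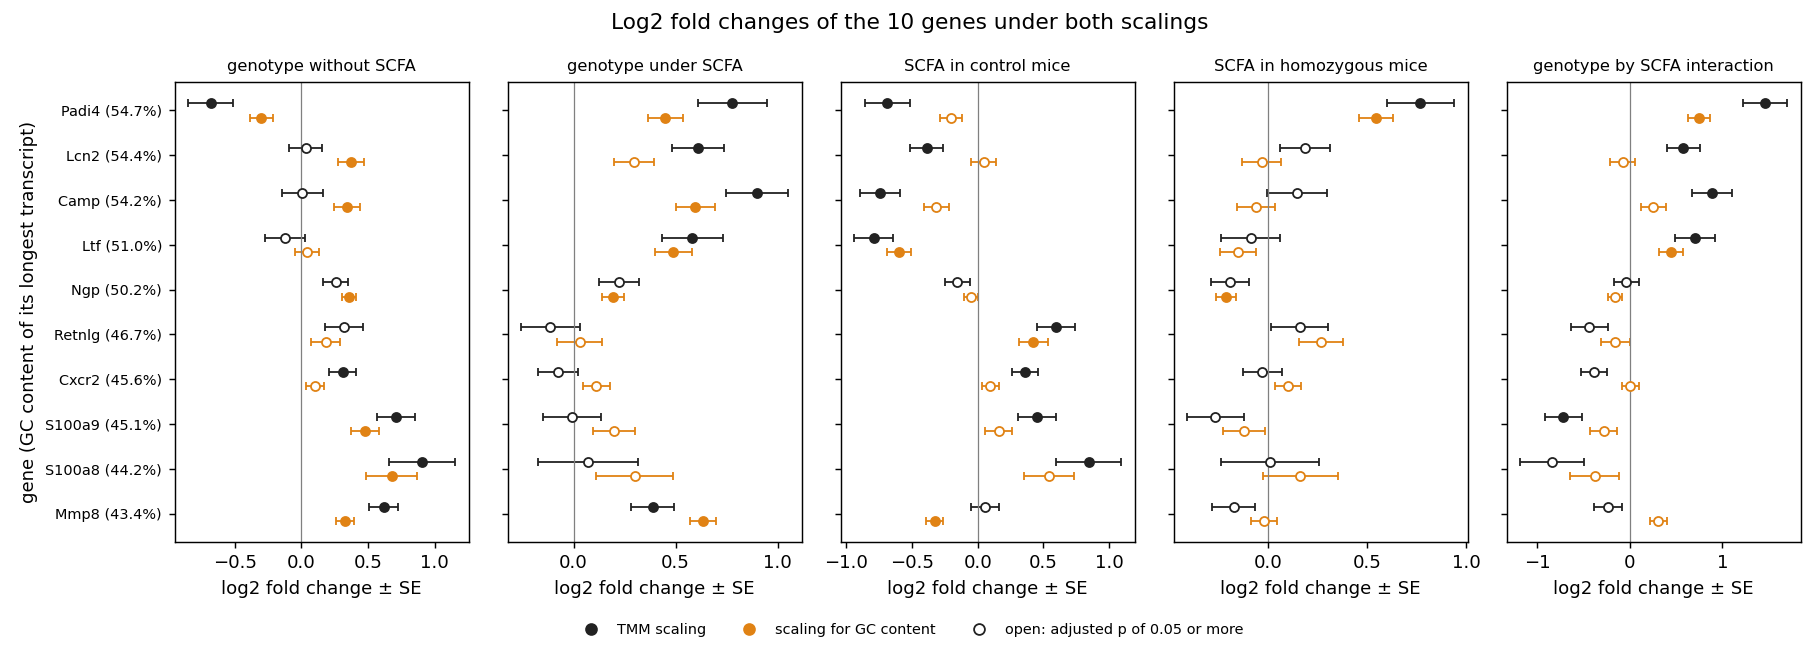
Points give log2 fold changes with their standard errors (bars) for the 10 genes, ordered by transcript GC content, in the 5 comparisons, black with TMM scaling and orange with GC scaling, filled where the adjusted p was under 0.05. GC scaling moves GC-rich and GC-poor genes in opposite directions, and Mmp8 and Padi4 are called under both scalings in both genotype comparisons.

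Per kilobase of exon, the order of the 10 genes was nearly the same in all groups. S100a8 came first, with 30279.9 CPM per kilobase in control untreated and 53145 in homozygous SCFA, followed by S100a9 (13947 and 17483). Ngp and Retnlg took the next 2 places, Ngp ahead in untreated groups (5434 against 4635 in control untreated) and Retnlg ahead in SCFA groups (6521 against 4525 in control SCFA). Mmp8, Camp and Ltf followed, in that order in every group, and Padi4 was last, with 38.2 to 68.0. Across the 12 libraries, log2 CPM of S100a8 correlated with Retnlg (r = 0.89), S100a9 (0.87) and Cxcr2 (0.83), and Camp with Lcn2 (0.97) and Ltf (0.88), whereas Ltf and Retnlg ran opposite (-0.78). Mmp8 correlated with S100a9 (0.71), S100a8 (0.60) and Ngp (0.60). These values describe 12 points that share libraries and their GC trend. The 5 genes most like the mean profile of the 10 members, of 9964 searched, were Ifitm1 (r = 0.957), Csta2, Rab29, Pomp and Vim, and the 5 most opposite were Acss1 (r = -0.941), Fam169b, Hivep2, Myo1e and Ikzf3. That mean joins members that ran opposite to each other, such as Ltf and Retnlg, so it does not describe each member.

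Genes of the other stages of the lineage were read from lists. With TMM scaling, the share of all genes called was 14.8% for genotype without SCFA and 17.4% under SCFA. It was 21.9% for SCFA in control mice and 9.58% in homozygous mice. With GC scaling these shares were 9.83%, 15.4%, 6.11% and 11.9% in the same order. Of 6 primary granule genes, 4 rose with genotype under SCFA (2 without control SCFA 3 or homozygous SCFA 3), among them Prtn3 by 0.97 ± 0.18 (adjusted p = 0.00204), Elane by 0.73 ± 0.16 (adjusted p = 0.00645) and Mpo by 0.74 ± 0.18 (adjusted p = 0.0128), all serine proteases or the peroxidase of the first granule. The same 3 fell with SCFA in control mice, where 4 of 6 were called lower (2 without control SCFA 3), at log2 fold changes of -0.91 for Mpo, -0.87 for Prtn3 and -0.74 for Elane, and GC scaling left 1 of them, Mpo (-0.33). Without SCFA 1 of 6 was called higher in homozygous marrow (2 without homozygous SCFA 1 or 2), Ms4a3, a membrane protein of granulocyte and monocyte progenitors, at 1.04 ± 0.13 (adjusted p = 2.11e-04), and with GC scaling 5 of 6 were. In homozygous mice Ms4a3 fell with SCFA, at -1.03 ± 0.13 (adjusted p = 1.33e-04), and with GC scaling all 6 of 6 fell, with Ms4a3 at -0.88, Prtn3 at -0.33 and Mpo at -0.29. The list's median GC content was 55.3%. Among all genes of 52 to 56% GC, TMM scaling called 21.2% for genotype under SCFA and 27.8% for SCFA in control mice.

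Of 18 other secondary and tertiary granule genes, 12 rose and none fell with genotype under SCFA, with a list median of 0.65 against -0.025 for all genes. GC scaling gave 13 higher and 1 lower, and leave-one-out fits 11 to 12 higher. Lyz2, which encodes lysozyme, rose by 0.68 ± 0.076 (adjusted p = 2.89e-05), Hp (haptoglobin) by 1.1 ± 0.16 (adjusted p = 4.22e-04) and Lrg1 by 1.24 ± 0.19 (adjusted p = 5.09e-04). With SCFA in control mice 10 of 18 fell (3 without control SCFA 3) and 2 rose (4 without control untreated 1, and 0 without control SCFA 3), with -0.97 for Hp, -0.92 for Cd177 and -1.02 for Lrg1, and GC scaling left 5 lower and 2 higher. Without SCFA 4 rose (2 without homozygous untreated 1 or 2) and 1 fell (7 without control untreated 1) with genotype, and the rises included Lyz2 by 0.42 ± 0.076 (adjusted p = 0.00315) and Cybb, a subunit of the phagocyte oxidase, by 0.69 ± 0.14 (adjusted p = 0.00637). In homozygous mice SCFA went with 6 rises (2 without homozygous SCFA 2 or 3 or homozygous untreated 2) and no fall, led by Mmp9, a gelatinase of the tertiary granule, at 0.71 ± 0.15 (adjusted p = 0.00964).

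Of 20 mature neutrophil surface and signalling genes, 10 rose (2 without homozygous untreated 2) and 2 fell with genotype without SCFA. Fpr2, a formyl peptide receptor, rose by 0.96 ± 0.18 (adjusted p = 0.00441) and Clec4e, a lectin receptor, by 1.02 ± 0.21 (adjusted p = 0.00637). Under SCFA 4 rose and 1 fell, with -0.62 ± 0.10 (adjusted p = 0.00106) for the decoy receptor Il1r2 and 0.96 ± 0.17 (adjusted p = 0.00157) for the selectin ligand Selplg. GC scaling gave 9 higher and 1 lower. With SCFA in control mice 10 rose (2 without control SCFA 3) and 1 fell, and with GC scaling 5 rose and 1 fell. Il1r2 and Selplg were called in the opposite direction there, at 0.56 ± 0.10 (adjusted p = 0.00507) and -1.02 ± 0.17 (adjusted p = 0.00392), and both kept their calls with GC scaling (0.57 and -0.94). In homozygous mice SCFA went with 4 rises, among them Il1b (0.72 ± 0.10, adjusted p = 3.19e-04) and the G-CSF receptor Csf3r (0.84 ± 0.16, adjusted p = 0.00469).

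Of 8 granulocyte transcription factors, edgeR with TMM scaling called none for genotype without SCFA (2 at an unadjusted p under 0.05, 0 by DESeq2 and 1 by limma-voom). GC scaling called 1 higher, and with TMM scaling 2 were called lower without control untreated 1. With genotype under SCFA 5 rose, with Cebpd at 0.95 ± 0.15 (adjusted p = 7.78e-04), Rara at 1.11 ± 0.18 (adjusted p = 9.99e-04) and Cebpb at 1.11 ± 0.19 (adjusted p = 0.00130). GC scaling left 4. With SCFA in control mice 5 fell (1 without control SCFA 3), led by Spi1, which encodes PU.1, at -0.79 ± 0.15 (adjusted p = 0.00613), and GC scaling left none, with Spi1 at -0.12. This list had a median GC content of 59.0%. Among all genes above 56% GC, TMM scaling called 30.2% for genotype under SCFA and 42.6% for SCFA in control mice. The lists were chosen with earlier results of these data known, and their counts are descriptions.

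**Figure D5:**
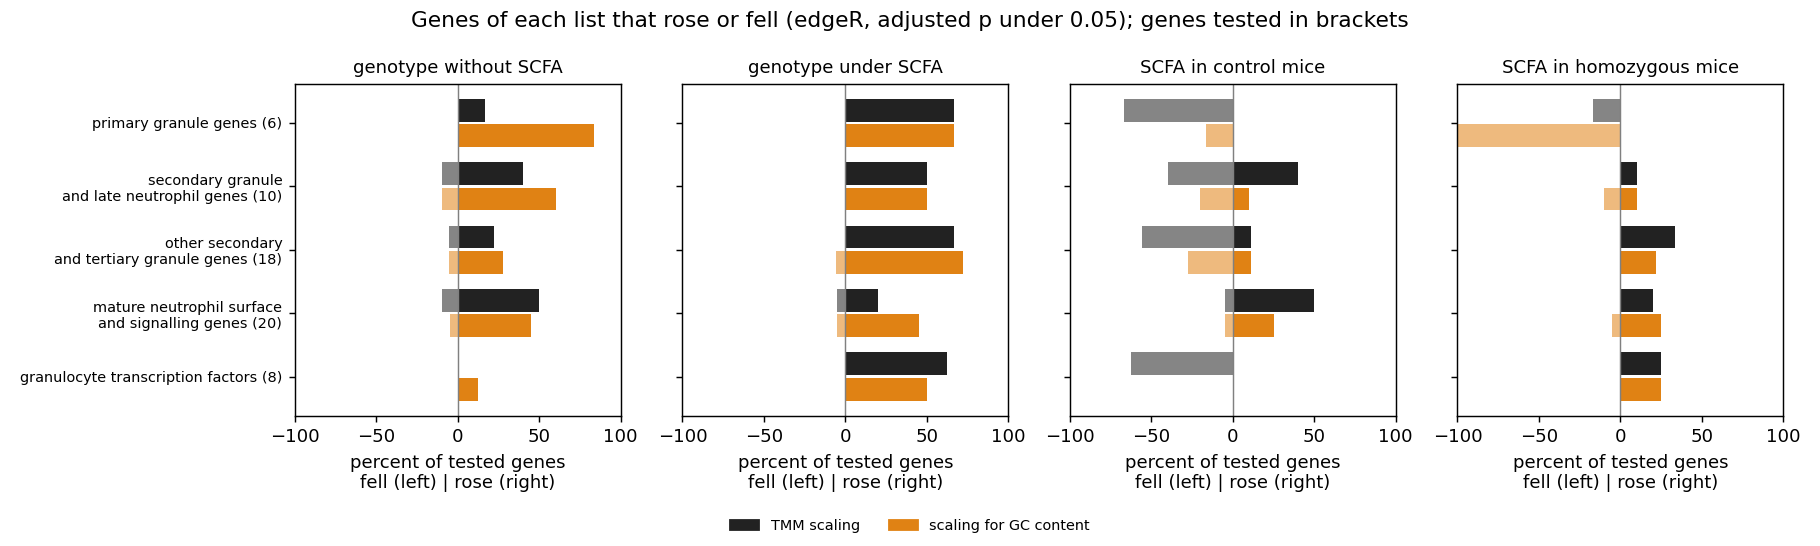
Bars give the percent of each list's tested genes that rose (right, dark) or fell (left, pale) in the 4 comparisons, black with TMM and orange with GC scaling, with the number tested in brackets. Genotype under SCFA has rises in all 5 lists under both scalings, and the falls with SCFA in control mice are shorter with GC scaling in 4 of the lists.

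Ligands, receptors and relatives of the members were read in the same way. Cxcl2, a ligand of CXCR2, rose with SCFA in control mice by 1.48 ± 0.18 (adjusted p = 5.10e-04) and in homozygous mice by 0.69 ± 0.17 (adjusted p = 0.0214). Ppbp, the platelet chemokine that also binds CXCR2, rose with SCFA in control mice by 0.90 ± 0.18 (adjusted p = 0.00688). Cxcr1, the sister receptor, had 6.2 ± 1.17 CPM in control SCFA and 15.3 ± 3.21 in homozygous SCFA, a rise of 1.31 ± 0.36 (adjusted p = 0.0201). Cd36, a scavenger receptor listed here for binding S100A8 and S100A9, fell with genotype under SCFA, at -2.48 ± 0.21 (adjusted p = 1.59e-06), and it is also expressed by red cell precursors. Lrp1, an endocytic receptor for lactoferrin, rose with genotype under SCFA by 1.44 ± 0.21 (adjusted p = 3.31e-04). Among the deiminases, Padi4 was by far the most abundant. Padi2 had 40.8 ± 12.6 CPM in control untreated and 20.9 ± 5.68 in control SCFA, and Padi1 and Padi6 did not pass the filter on low counts. Of 6 tested other S100 genes, 4 rose with genotype under SCFA (2 without control SCFA 1, 2 or 3 or homozygous SCFA 2), among them S100a6 (0.93 ± 0.15, adjusted p = 0.00105) and S100a4 (1.01 ± 0.28, adjusted p = 0.0224), in the comparison in which S100a8 and S100a9 were not called. GC scaling also gave 4.

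Markers of other lineages moved with the groups. All 10 B lineage markers, none at 0 in the summed counts of any group, fell with genotype without and under SCFA and with SCFA in homozygous mice. Their summed CPM was 2981 to 3485 in control and 973 to 1088 in homozygous mice without SCFA, and 2727 to 2824 and 334 to 391 respectively under SCFA. The 9 erythroid markers measured, likewise none at 0 in any group, summed to 19450.1 to 21038, 8586 to 11166, 11258 to 12772 and 2200.2 to 2702 CPM in the same order. For genotype under SCFA 6 of them fell and 1 rose, and for SCFA in control mice 5 fell. The part of these shifts in the results for the 10 genes was not tested. Monocyte markers, of which 10 were tested, summed to 4722 to 5275, 6552 to 6564, 5253 to 5579 and 6628 to 7226 CPM, higher in both homozygous groups, as was Mmp8. The single markers did not all move with the sum. For genotype 5 of 10 rose and 2 fell without SCFA, and 3 rose and 0 fell under SCFA. With SCFA in control mice 3 rose and 3 fell. Monocytes also express S100a8 and S100a9, and their part was not tested.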

How the data were processed

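RNA-seq counts were analysed for 12 libraries, 3 in each of 4 groups. Values are counts of reads per gene symbol as deposited, with no normalization by the authors. The submitters' processing notes name STAR, featureCounts and mm10, without versions. Annotation is not given in the sources used here, nor is strand use. Poly(A) RNA was amplified with a Clontech kit for low input, per the labels' protocols. No 2 replicates agreed within sampling noise (chi-square per degree of freedom 11.6 to 84.8).

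The test was the quasi-likelihood F test of edgeR 4.0.16 (R 4.3.3), with TMM factors and library sizes from all counts, after filterByExpr by group, in 1 fit of 4 group means over 12 libraries. Benjamini-Hochberg adjusted p under 0.05 over 15674 genes counted as called. The procedure was tested on simulated data. CPM were computed from the counts. GC content came from the longest GENCODE M21 transcript of 98.2% of the genes tested. For GC scaling, a lowess curve (span 0.3) of each library's log2 CPM minus the gene's mean served as an offset.

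Alternatives were RLE factors, library totals alone, scaling without the 10 genes, no filter, DESeq2 1.42.0, limma-voom (limma 3.58.1) with quality weights, only the groups compared, a replicate block and each library left out. The 10 genes, the gene lists and the comparisons were chosen with earlier results of these data known. All 10 genes are named. Of each other list, at most 3 called genes with the smallest p per comparison are named, and the 5 genes with the highest and the lowest correlation with the mean standardized log2 CPM (prior count 2) of the 10, among genes of at least 5 CPM. Promoter sequences are from RefSeq (GRCm38.p6), in which all 10 genes were found. The erythroid marker Ahsp was not analysed here.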

Additional observations from a re-analysis of the deposited data

Results flagged for a closer look

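By the interaction term of the edgeR fit, the response to SCFA differed between control and homozygous mice for 5 of the 10 genes. This compares with 25.1% of all genes called. SCFA and date cannot be told apart in this term. With TMM scaling, the calls of S100a9, Ltf and Lcn2 were each lost in 5 of 12 leave-one-out fits. For Padi4 the difference was 1.46 on the log2 scale, from a fall in control mice (-0.69) and a rise in homozygous mice (0.77). For Camp it was 0.89, from -0.74 and 0.15, and for Ltf 0.70, from -0.79 and -0.088. For Lcn2 it was 0.58, from -0.39, which had the other sign with GC scaling (0.045), and 0.19. For S100a9 it was -0.72, from 0.45 in control mice and -0.26 in homozygous mice. In the same comparison the median log2 difference of all genes was -0.68 in genes of at most 40% GC and 1.07 in genes above 56%. With GC scaling the interaction was 0.75 for Padi4 and 0.45 for Ltf, both still called, and 0.25 for Camp, -0.077 for Lcn2 and -0.28 for S100a9, none of them called. The GC-scaled call was made in 12 of 12 leave-one-out fits for Padi4 and in 3 of 12 for Ltf.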

How the results depend on the processing

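Over 990 refits of the members' values without GC scaling, 88 lost a call, 16 gained one and 0 reversed one. Of 24 calls with TMM scaling, 8 were made in every such fit. GC scaling, added after the data were seen, turned the sign of Lcn2 for SCFA in control mice (0.045) and in the interaction (-0.077) and of Mmp8 for SCFA in control mice (-0.33). It changed the count of members called from 8 to 3 for SCFA in control mice, from 1 to 2 in homozygous mice and from 5 to 2 for the interaction. Genes called went from 2323 to 1540 for genotype without SCFA, 3433 to 958 for SCFA in control mice and 3938 to 1565 for the interaction. With only the 2 groups compared, members called were 2 for genotype without SCFA and 4 for SCFA in control mice, and genes called 914 and 2035 and, for genotype under SCFA and SCFA in homozygous mice, 3521 and 1846. The cause of these changes was not tested. Limma-voom called 8 members and 5806 genes (37.0% of those tested) for the interaction. It called 3922 genes for genotype without SCFA, 4762 under SCFA (edgeR 2722) and 2988 for SCFA in homozygous mice, where DESeq2 called 2310 and edgeR 1501. With library totals alone, the percent of called genes that were higher went from 45.1 to 23.3 for genotype without SCFA, 40.6 to 27.4 for SCFA in control mice (30.6 with scaling without the 10 genes) and 54 to 64.3 for the interaction, and the median of all genes for genotype without SCFA from -0.035 to -0.18.

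Leaving out each library in turn gave 2 to 6 members called for genotype without SCFA, 3 to 6 under SCFA, 1 to 8 for SCFA in control mice, 0 to 1 in homozygous mice and 2 to 7 for the interaction. With GC scaling these were 3 to 7, 4 to 6, 1 to 4, 1 to 2 and 1 to 4. The lowest count with TMM scaling came without control untreated 2 or 3 or homozygous untreated 1 or 2 for genotype without SCFA, without control SCFA 3 or homozygous SCFA 3 under SCFA, without control SCFA 3 for SCFA in control mice, without homozygous untreated 2 in homozygous mice and without homozygous untreated 2, control SCFA 3 or homozygous SCFA 3 for the interaction. Genes called ranged over 770 to 4334, 1431 to 3282, 613 to 5090, 748 to 1998 and 2455 to 5381. The summed share without S100a8 and S100a9 was 1.81% in control and 1.97% in homozygous mice without SCFA, and 1.61% and 1.91% respectively under SCFA.

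Whether the replicate numbers pair the libraries was not settled. Deviations of same-numbered libraries correlated at -0.311 to 0.464 over 18 pairs, with 5 over 0.1. Their median was -0.020, against -0.0094 over 36 other pairs. Of 12 libraries, 6 correlated best with their own number. With the replicate block, 4, 5, 7, 1 and 6 members and 2067, 2447, 3249, 1282 and 3715 genes were called in the same order of comparisons. The block ended the calls of Cxcr2 for genotype without SCFA (adjusted p = 0.0683) and of Lcn2 for SCFA in control mice (adjusted p = 0.0530) and added S100a8 for the interaction (adjusted p = 0.0393).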

Other observations

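Ratios between members within a library do not depend on library size. Per kilobase of exon, S100a8 stood to S100a9 at 2.12 ± 0.736 in control and 2.51 ± 0.129 in homozygous mice without SCFA, and 2.90 ± 0.271 and 3.05 ± 0.293 respectively under SCFA (mean ± SD, n = 3). In control untreated the 3 libraries spread from 1.57 to 2.96, so that this group overlapped each of the others. Padi4 stood to Cxcr2 at 0.371 ± 0.103, 0.186 ± 0.0343, 0.179 ± 0.0153 and 0.324 ± 0.0601 in the same order, and Camp to Ngp at 0.177 ± 0.00253, 0.149 ± 0.0228, 0.118 ± 0.0119 and 0.188 ± 0.0202. Camp and Ngp differ less in GC content than Padi4 and Cxcr2 do. The ratio of Mmp8 to Ngp was 0.354 ± 0.00221 in homozygous untreated, with 0.352 to 0.357 among libraries, and 0.279 ± 0.0531 in control untreated. Control untreated 1, 2 and 3 had 0.309, 0.218 and 0.311. Under SCFA the ratio was 0.321 ± 0.0381 in control and 0.361 ± 0.0562 in homozygous mice, and these groups overlapped. Mmp8 and Ngp have 43.4% and 50.2% GC. No test was made on these ratios.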
